A study of Rattus norvegicus with 44 samples.

Results

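The cortex of the hemisphere opposite to a permanent occlusion of the middle cerebral artery was compared with the same cortex of sham-operated rats. The arrays were chosen by their labels: 16 of the 44 arrays of the series carried the contralateral area of operated rats, with 4 after infarct and 4 after sham at each of 24 h and 3 d. Per the study's methods each array held cortical RNA pooled from 3 adult Sprague-Dawley rats, so that 4 arrays stood for 4 pools of animals, named here by the rat number of the label. In the infarct groups the right middle cerebral artery was tied for good through a small craniotomy, in a model that per the methods also closes both common carotid arteries for a limited time. Per the methods sham rats had the same surgery without occlusion, and it is not stated separately whether their carotid arteries were closed, so whether the carotid closure is part of the differences below was not settled here. Every operated rat received ketamine, diazepam, atropine and meloxicam, and contralateral cortex of unoperated rats was not analysed here. All values below are log2 signals after quantile normalization or differences of their means, infarct minus sham. In pooled cortex, fewer cells of a type and less RNA per cell cannot be told apart.

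Cortex opposite to a stroke lies outside the territory of the tied artery but is linked to it through callosal axons and circulating factors. The paper states that blood flow on this side also falls in this model, and it did not take the tissue as wholly healthy. Whether lower blood flow took part in the differences below was not tested. Immediate early genes such as Fos, Egr1 and Arc are transcribed within minutes of synaptic activity, growth factor signalling or stress, without new protein synthesis, and their transcripts in cortex are widely used as a trace of recent neuronal activity. Microglia, the resident macrophages of the brain, and astrocytes, which take up transmitter and line the vessels, alter their transcripts after injury.

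No probe passed the test between infarct and sham contralateral cortex. At 24 h 0 of 30539 probes had an adjusted p under 0.05 in limma (0%), and 893 had an unadjusted p under 0.05 (2.92%). At 3 d the counts were 0 (0%) and 787 (2.58%). The average effect of both times gave 0 and 915 (3%), and the 3 d effect minus the 24 h effect gave 0 and 770 (2.52%). These shares lay below the 0.05 of probes that such a threshold gives on average where nothing differs. The smallest adjusted p was 0.779 at 24 h and 0.245 at 3 d. With the same tool over all 44 arrays, the ischemic core against sham ipsilateral cortex had 5752 called probes at 24 h and 13323 at 3 d. Every contralateral difference below therefore missed the threshold. Gene groups are described by their members' values and by the number with an unadjusted p under 0.05, read against the share of all probes with such a p. That share moved with single arrays: without sham pool 8 of 24 h 3281 probes had an unadjusted p under 0.05 at 24 h and 2342 for the difference between the times, and without sham pool 6 1516 had at 24 h. With any other array left out there were 650 to 1005 at 24 h.

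The 16 arrays lay on 8 slides, unevenly over the groups. Infarct pools 1 and 4 of 24 h and 10 and 12 of 3 d shared 1 slide that held no sham contralateral array, 2 slides held both groups of 24 h, and none held both groups of 3 d. Arrays correlated with r between 0.931 and 0.988, and between 63.0% and 73.5% of probes were well above background. The mean signal of 12 neuronal markers lay between 11.16 and 11.30 on every array. Infarct pool 4 of 24 h carried choroid plexus transcripts: Ttr, the transthyretin that this epithelium secretes, read 13.34 there, 1.79, 0.52 and 0.52 on the other arrays of its group and 3.30 to 5.76 in sham. Group results are also given without this array, without infarct pool 12 of 3 d, which had the highest Spp1 signal, and without sham pool 5 of 24 h, which stood at the end of the first principal component.

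Immediate early genes were lower after infarct at both times. Of 30 listed genes 30 were measured, and 26 were lower at 24 h and 24 at 3 d, where 49.1% and 48.9% of all probes were lower. With an unadjusted p under 0.05, 13 of the 30 were lower at 24 h, against 1.61% of all probes, and 12 at 3 d, against 1.34%. The median difference of the list was -0.39 at 24 h and -0.31 at 3 d, beside 0.0049 for all probes at either time, and 0 of the 30 had an adjusted p under 0.05. Infarct and sham arrays did not overlap for 11 genes at 24 h, all lower (Fos, Junb, Egr1, Egr2, Egr3, Arc, Nr4a1, Nr4a3, Dusp6, Ier2 and Btg2), where 0.737% of all probes lay lower without overlap. At 3 d 7 genes lay lower without overlap (Fosl2, Jun, Arc, Npas4, Dusp1, Ier2 and Btg2) and 1 higher (Nptx2), beside 1.24% and 1.18% of all probes. Of the 4 probes that lay lower without overlap at both times (0.0131% of all), 3 were Arc, Ier2 and Btg2.

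The promoters of Egr2, Ier2 and Btg2 are shown because these genes were lower after infarct and their promoters hold a motif of activity-regulated transcription. Each run is the 250 bases before the annotated start in RefSeq on GRCr8, written 5′ to 3′ on the strand of the gene, with Egr2 at chr20:21054442-21054691 on the minus strand, Ier2 at chr19:40399123-40399372 on the plus strand and Btg2 at chr13:48087691-48087940 on the minus strand. Capitals mark a CArG box, the site of serum response factor, in Egr2 and TGACGTCA, the site of CREB, in Ier2 and Btg2.
Egr2: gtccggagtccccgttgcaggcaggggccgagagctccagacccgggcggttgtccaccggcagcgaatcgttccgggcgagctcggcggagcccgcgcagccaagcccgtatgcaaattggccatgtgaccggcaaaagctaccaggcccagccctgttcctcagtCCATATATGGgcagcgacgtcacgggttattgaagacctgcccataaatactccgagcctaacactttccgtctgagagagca
Ier2: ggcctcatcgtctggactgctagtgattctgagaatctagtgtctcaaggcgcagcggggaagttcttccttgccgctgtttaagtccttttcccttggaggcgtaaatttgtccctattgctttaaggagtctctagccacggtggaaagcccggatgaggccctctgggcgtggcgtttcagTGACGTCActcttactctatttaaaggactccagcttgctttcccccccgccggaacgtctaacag
Btg2: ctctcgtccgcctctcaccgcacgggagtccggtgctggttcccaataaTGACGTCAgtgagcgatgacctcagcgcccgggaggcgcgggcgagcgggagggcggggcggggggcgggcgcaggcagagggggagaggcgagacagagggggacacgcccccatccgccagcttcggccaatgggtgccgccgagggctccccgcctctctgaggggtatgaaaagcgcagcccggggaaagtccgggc
Of the 30 genes 23 had a promoter in the RefSeq table. Searched on both strands, a CArG box was in 4 of them (Dusp5, Egr1, Egr2 and Klf6), or 17.4%, against 1.50% of all 27457 promoters of this length. TGACGTCA was in 4 (Btg2, Dusp1, Ier2 and Vgf), against 1.70% of all. The AP-1 site TGACTCA and the EGR site GCGTGGGCG were in 0, against 3.98% and 0.513% of all. A match describes the letters of this window and no more.

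**Figure D1:**
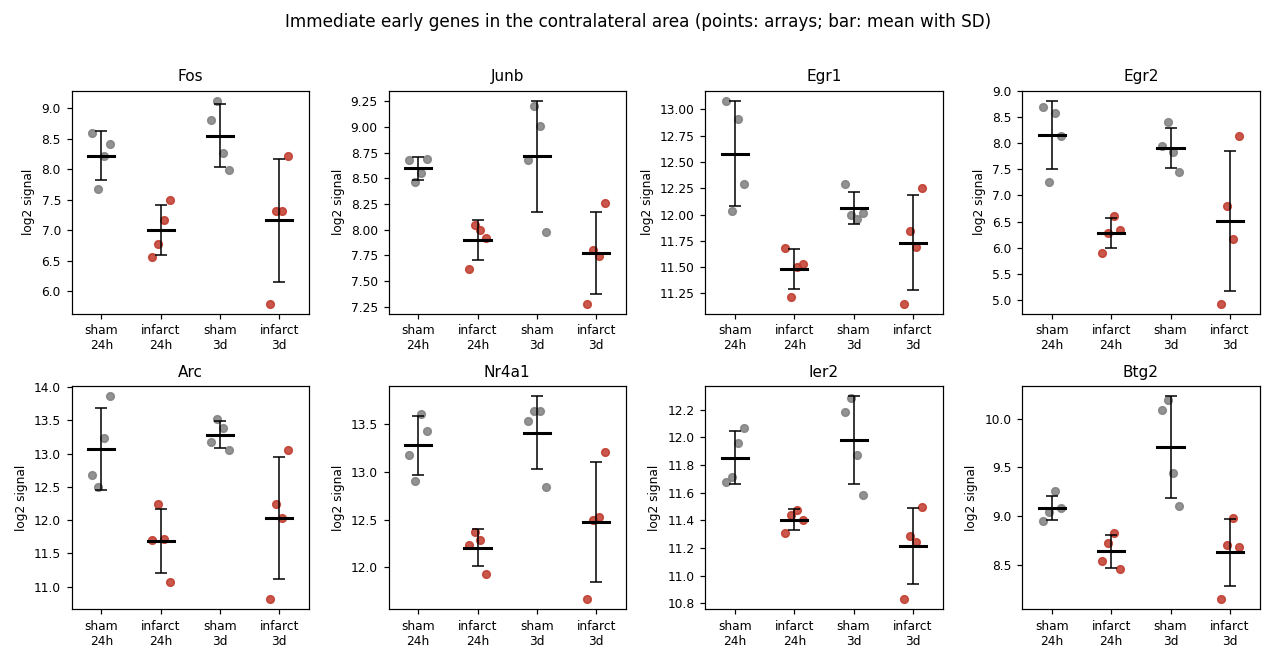
Normalized log2 signal (y axis) of 8 immediate early genes on the contralateral arrays, by group (x axis); grey points are sham arrays, red points infarct arrays, bars the mean and whiskers the SD of 4 arrays. In the Arc panel the infarct arrays of 24 h read 11.70, 12.25, 11.72 and 11.08 and lie below the sham arrays, and at 3 d the infarct arrays spread more widely than the sham arrays.

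Fos, which encodes a subunit of the transcription factor AP-1, read 6.56, 6.78, 7.17 and 7.50 after infarct and 8.59, 7.67, 8.22 and 8.42 after sham at 24 h. At 3 d it read 5.80, 7.32, 7.31 and 8.21 after infarct and 8.82, 9.13, 8.27 and 7.98 after sham. The groups were apart at 24 h, and at 3 d infarct pool 12 lay within the sham range. The difference was -1.22 ± 0.42 (SE) at 24 h, with an adjusted p of 0.996, and -1.39 ± 0.42 at 3 d.

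Arc, whose protein acts in the trafficking of AMPA receptors at synapses, read 11.70, 12.25, 11.72 and 11.08 after infarct and 12.67, 12.49, 13.24 and 13.87 after sham at 24 h. At 3 d it read 10.82, 12.24, 12.03 and 13.05 after infarct and 13.18, 13.52, 13.38 and 13.06 after sham. All infarct arrays lay below all sham arrays at both times, although at 3 d infarct pool 12 and sham pool 16 nearly met. The differences were -1.38 ± 0.41 and -1.25 ± 0.41.

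Nr4a1, an orphan nuclear receptor, read 12.23, 12.37, 12.29 and 11.93 after infarct and 13.17, 12.90, 13.61 and 13.43 after sham at 24 h, a difference of -1.07 ± 0.28 with no overlap. At 3 d it read 11.67, 12.49, 12.52 and 13.21 after infarct and 13.53, 13.64, 13.64 and 12.85 after sham, a difference of -0.94 ± 0.28, and infarct pool 12 lay above sham pool 16. Egr1, a zinc-finger factor, read 11.68, 11.22, 11.50 and 11.53 after infarct and 13.08, 12.04, 12.91 and 12.29 after sham at 24 h, with no overlap. Its differences were -1.10 ± 0.25 at 24 h and -0.33 ± 0.25 at 3 d, and the difference between the times had an unadjusted p of 0.0456 and an adjusted p of 0.986. Egr2, of the same family, had the largest difference of the list at 24 h: it read 5.89, 6.29, 6.60 and 6.33 after infarct and 8.69, 7.25, 8.57 and 8.14 after sham. Its differences were -1.89 ± 0.51 and -1.40 ± 0.51, with overlap at 3 d.

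Ier2 and Btg2, the latter an antiproliferative cofactor, separated the groups at both times, by smaller steps than Arc. Ier2 read 11.30, 11.44, 11.48 and 11.40 after infarct and 11.68, 11.71, 11.96 and 12.07 after sham at 24 h and 10.83, 11.29, 11.24 and 11.50 after infarct and 12.18, 12.28, 11.87 and 11.58 after sham at 3 d. Its differences were -0.45 ± 0.17 and -0.77 ± 0.17. Those of Btg2 were -0.45 ± 0.23 and -1.08 ± 0.23, and those of Junb, another AP-1 subunit, -0.70 ± 0.24 and -0.94 ± 0.24. Npas4, a neuronal factor that depends on activity, was not well above background on any infarct array of 3 d, and sham was at least 1.73-fold higher there. Bdnf, the neurotrophin, differed by 0.01 ± 0.25 and -0.02 ± 0.25, and a second Bdnf probe by -0.40 and -0.04. Klf6 differed by 0.18 and 0.14, and Nptx2, a synaptic pentraxin, by -0.07 and 0.39.

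The direction of the immediate early list was the same in every setting tried for it, but the number of members with a small p was not. On the 2 slides with both groups of 24 h, 18 and 27 of the 30 genes were lower after infarct, with medians of -0.12 and -0.59. Without pool 4, 12 genes were lower at an unadjusted p under 0.05 at 24 h, without sham pool 5 10, without sham pool 8 11 (against 4.29% of all probes in that fit), and without pool 12 13 at 3 d. Without infarct pool 9 of 3 d, 9 were lower and 2 higher with such a p at 3 d, and the median was -0.26. With slide as a fixed block over all 44 arrays the medians were -0.35 and -0.33, with 6 and 0 such genes, and in the fit of all 44 arrays with no block there were 7 and 8. Without the 4 infarct arrays that shared a slide the medians were -0.31 and -0.59.

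Levels elsewhere in the series place these values. Mean Arc signal was 13.88 ± 0.12 (SD, n = 4) in healthy ipsilateral cortex, 13.06 ± 0.37 and 13.34 ± 0.33 in sham ipsilateral cortex at 24 h and 3 d, and 13.07 ± 0.62 and 13.29 ± 0.21 in sham contralateral cortex. Infarct contralateral cortex had 11.69 ± 0.48 and 12.03 ± 0.92, and the periinfarct area 11.92 ± 1.13 and 11.33 ± 0.62. Fos stood in another order: its mean was 10.06 ± 1.62 in the periinfarct area at 24 h, 8.23 ± 0.40 in sham contralateral cortex and 7.00 ± 0.42 in infarct contralateral cortex. Against healthy ipsilateral cortex, which differs in hemisphere and surgery as well, infarct contralateral cortex of 24 h had 1757 called probes, 5.75% of all, and 2.11% were called lower. Among the latter were Fos (-2.14), Arc (-2.20), Egr2 (-2.64), Nr4a1 (-1.79) and Junb (-1.07), with limma adjusted p between 0.0218 and 0.0353. Against the same healthy cortex, infarct contralateral cortex of 3 d had 0 called probes, so none of these genes was called at that time.

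Microglial and macrophage genes were higher at 3 d, by small amounts. Of 21 listed genes 21 were measured, and 17 were higher after infarct at 3 d, where 51.1% of all probes were. An unadjusted p under 0.05 was found for 10 of the 21, against 1.23% of all probes. At 24 h 15 were higher, beside 50.9% of all probes, 1 with such a p, against 1.31%. The median difference was 0.19 at 24 h and 0.34 at 3 d. At 3 d 10 genes lay higher without overlap, beside 1.18% of all probes: Aif1, P2ry12, C1qa, C1qb, Tyrobp, Trem2, Spp1, Lgals3, Fcgr2b and Lyz2. In the fit of all 44 arrays and with slide as a fixed block the 3 d medians were 0.34 and 0.34, with 1 and 0 genes at an unadjusted p under 0.05.

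**Figure D2:**
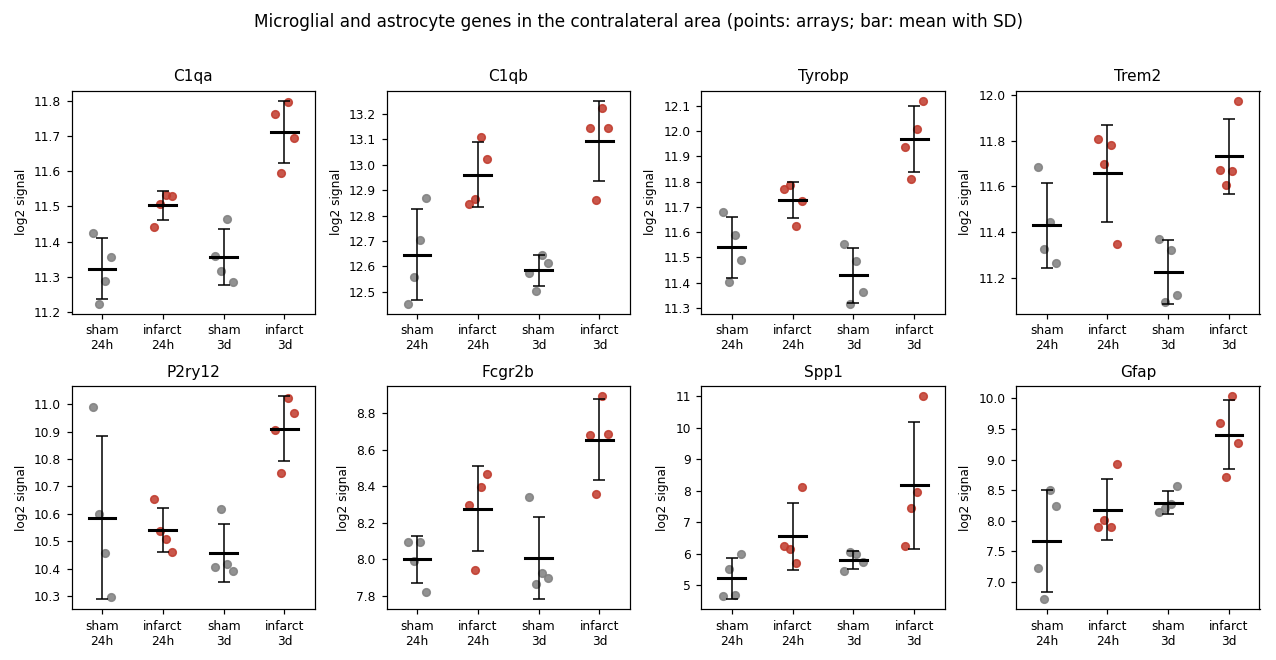
Normalized log2 signal (y axis) of 7 microglial genes and of Gfap on the contralateral arrays, by group (x axis); grey points are sham arrays, red points infarct arrays, bars the mean and whiskers the SD of 4 arrays. At 3 d the infarct arrays of Tyrobp (11.94, 11.81, 12.01 and 12.12) lie above all sham arrays, and 1 infarct array at 11.01 stands above the rest for Spp1.

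C1qb, a chain of complement C1q, read 13.14, 12.86, 13.22 and 13.14 after infarct and 12.57, 12.50, 12.65 and 12.61 after sham at 3 d, with no overlap. At 24 h it read 12.85, 12.87, 13.11 and 13.02 after infarct and 12.45, 12.56, 12.70 and 12.87 after sham, and the groups just overlapped. Its differences were 0.31 ± 0.12 and 0.51 ± 0.12. C1qa was 1 of 9 probes (0.0295%) that lay higher without overlap at both times, with differences of 0.18 ± 0.09 and 0.36 ± 0.09. Those of C1qc, the remaining chain, were 0.36 and 0.33, with overlap.

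Tyrobp, the signalling adaptor of Trem2, read 11.94, 11.81, 12.01 and 12.12 after infarct and 11.55, 11.32, 11.49 and 11.36 after sham at 3 d. Its difference of 0.54 ± 0.11 had an adjusted p of 0.666, while a second Tyrobp probe differed by -0.03. Trem2, a lipid-sensing receptor, differed by 0.50 ± 0.14, and Fcgr2b, the inhibitory Fc receptor, by 0.65 ± 0.15. In the ischemic core of 3 d mean Tyrobp signal was 15.18 ± 0.42 (SD, n = 4), against 11.97 ± 0.13 in infarct contralateral cortex.

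P2ry12, the purinergic receptor of surveying microglia, read 10.90, 10.75, 11.02 and 10.97 after infarct and 10.40, 10.62, 10.42 and 10.39 after sham at 3 d, again with no overlap. Its differences were -0.05 ± 0.14 and 0.45 ± 0.14, and those of Aif1, which encodes the marker Iba1, 0.08 ± 0.14 and 0.46 ± 0.14. Mrc1, the mannose receptor of perivascular macrophages, differed by -0.58 at 3 d, with an unadjusted p of 0.0267. Fcer1g (0.48 ± 0.11), Tbxas1 (0.47 ± 0.11), Lsp1 (0.49 ± 0.11) and Pycard (0.56 ± 0.14), all expressed by myeloid cells, were outside the list and chosen after their values were seen. They were higher without overlap at 3 d, as were 1.18% of all probes, and are no test of the list. A second Pycard probe differed by 0.10.

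Spp1 and Lgals3, which encode osteopontin and galectin-3, were highest on single arrays. Spp1 read 6.24, 7.47, 7.96 and 11.01 after infarct and 5.44, 6.06, 6.01 and 5.74 after sham at 3 d, with pool 12 far above the others of its group. At 24 h it read 6.24, 6.17, 5.70 and 8.12 after infarct and 4.67, 5.50, 4.70 and 6.01 after sham, with pool 4 highest. Its differences were 1.34 ± 0.78 and 2.36 ± 0.78, and with slide as a fixed block that of 24 h was -0.08. Lgals3 read 8.57, 8.57, 9.47 and 10.34 after infarct and 8.17, 8.15, 8.02 and 8.47 after sham at 3 d, highest in pool 12 too, with a difference of 1.04 ± 0.30. Without pool 12 the microglial list had 19 of 21 genes higher at 3 d and 9 at an unadjusted p under 0.05.

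Among astrocyte genes Gfap, the intermediate filament protein, read 9.60, 8.71, 10.04 and 9.28 after infarct and 8.14, 8.20, 8.28 and 8.57 after sham at 3 d, with no overlap. At 24 h it read 7.89, 8.02, 7.89 and 8.93 after infarct and 7.22, 6.72, 8.51 and 8.24 after sham, with overlap. Its differences were 0.51 ± 0.38 and 1.11 ± 0.38, and those of a second Gfap probe 0.82 and 1.00. Of 21 reactive astrocyte genes 14 were higher at 24 h (median 0.21) and 11 at 3 d (median 0.08), 1 and 3 of them with an unadjusted p under 0.05. Of all probes 50.9% and 51.1% were higher, and 1.31% and 1.23% were so with such a p. Without pool 4 the 24 h median of this list was 0.06. On the 2 slides with both groups of 24 h, 14 and 8 of its 21 genes were higher, with medians of 0.45 and -0.19. Serpina3n, a protease inhibitor of reactive astrocytes, differed by 0.57 ± 0.67 and 0.89 ± 0.67, and Timp1, an inhibitor of metalloproteinases, by 0.53 ± 0.34 and 0.50 ± 0.34. Against sham cortex of the operated side these 24 h differences had the opposite sign, with Gfap at -0.93, Serpina3n at -3.14, Timp1 at -1.17 and Spp1 at -1.23. Of 11 astrocyte markers 4 were higher at 24 h and 6 at 3 d, beside 50.9% and 51.1% of all probes.

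Of 28 measured cytokine, chemokine and adhesion genes 19 were higher at 24 h, 5 with an unadjusted p under 0.05 (Ccl2, Ccl3, Cxcl11, Cxcl13 and Il1b), and 18 at 3 d, 1 with such a p (Ccl3), where 50.9% and 51.1% of all probes were higher and 1.31% and 1.23% were so with such a p. The medians were 0.19 and 0.21, and without pool 4 that of 24 h was 0.04 with 2 such genes. Without sham pool 6 or 7 there were 3 and 2 at 24 h. Ccl2, a chemokine for monocytes, read 3.34, 4.71, 4.22 and 6.48 after infarct and 3.27, 2.82, 3.26 and 3.95 after sham at 24 h, with pool 4 highest, and differed by 1.36 ± 0.63. Ccl3, a chemokine of activated microglia, read 4.95, 5.18, 4.91 and 5.73 after infarct and 3.94, 4.76, 4.62 and 4.80 after sham at 3 d, with no overlap, and its differences were 0.74 ± 0.28 and 0.66 ± 0.28. Il1b, the cytokine interleukin-1 beta, differed by 0.51 ± 0.22 and 0.20 ± 0.22. Of 25 interferon-stimulated genes 22 were higher at 24 h (median 0.14) and 15 at 3 d (median 0.02), with 1 and 0 at an unadjusted p under 0.05. The gene with such a p was Ifit1, which encodes an interferon-induced RNA-binding protein. It was well above background on 1 infarct array and 0 sham arrays of 24 h, so that no fold is given. Its limma adjusted p was 0.996, and 0.0421 with slide as a fixed block. On the 2 slides with both groups of 24 h these lists went opposite ways. Of the 28 cytokine, chemokine and adhesion genes 18 and 10 were higher, with medians of 0.20 and -0.11. Of the 25 interferon-stimulated genes 20 and 6 were, with medians of 0.24 and -0.13.

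Cell cycle genes had a median near 0 at 24 h and were mostly above 0 at 3 d. Of 19 measured genes 9 were higher at 24 h (median -0.0027), beside 50.9% of all probes. At 3 d 17 were higher (median 0.18), 2 of them with an unadjusted p under 0.05, beside 51.1% and 1.23% of all probes. With slide as a fixed block 12 were higher at 3 d. On the 2 slides with both groups of 24 h, 15 and 13 of the 19 genes were lower after infarct, with medians of -0.26 and -0.27. Ect2, an exchange factor needed for cytokinesis, read 4.50, 4.62, 4.41 and 4.38 after infarct and 4.92, 5.23, 4.75 and 4.94 after sham at 24 h and 5.24, 5.01, 5.16 and 5.71 after infarct and 4.97, 4.83, 4.92 and 4.73 after sham at 3 d. It lay lower without overlap at 24 h (-0.48 ± 0.15) and higher without overlap at 3 d (0.42 ± 0.15). A second Ect2 probe was not well above background on any of the 16 arrays, so that its difference is not given. Pttg1, the securin of anaphase, differed by -0.29 ± 0.12 and 0.48 ± 0.12. For the difference between the times both had an adjusted p of 0.986. Top2a, a topoisomerase of dividing cells, read 4.13, 3.71, 4.38 and 4.62 after infarct and 2.59, 3.28, 2.70 and 3.81 after sham at 3 d, with overlap, and was well above background on 4 infarct arrays and 1 sham array.

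Markers of tissue next to the cortex differed between the groups too. Of 14 measured genes of meninges and fibroblasts 14 were lower after infarct at 3 d, 7 with an unadjusted p under 0.05 and 5 without overlap (Ogn, Igf2, Slc22a6, Slc6a13 and Wnt6), beside 1.34% and 1.24% of all probes, with a median of -0.79. Without infarct pool 9 or sham pool 16 of 3 d, 4 and 4 had such a p. At 24 h 11 were lower, with a median of -0.18. Of all probes 49.1% were lower at 24 h and 48.9% at 3 d. The mean signal of the list was 6.94 to 7.86 on the infarct arrays and 7.73 to 8.48 on the sham arrays of 3 d, and 7.04 to 7.77 and 7.05 to 8.09 at 24 h. Slc6a13, a GABA transporter of the leptomeninges, read 6.78, 7.22, 7.81 and 7.96 after infarct and 8.43, 8.17, 8.50 and 8.44 after sham at 3 d. Igf2, a growth factor made by meninges and choroid plexus, read 11.79, 10.77, 12.41 and 12.27 after infarct and 12.77, 12.78, 12.95 and 13.18 after sham. On the 2 slides with both groups of 24 h the list went opposite ways, with 14 of 14 genes higher on one and 14 of 14 lower on the other. Whether the amount of meninges in the samples took part in the other differences was not tested.

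The choroid plexus list had a mean signal of 7.06 on infarct pool 4 and of 2.63 to 2.87 on the other infarct arrays of 24 h, against 3.23 to 3.69 in sham. Without pool 4 its 24 h median was -0.39 instead of 0.34. The immediate early list without pool 4 had a 24 h median of -0.38.

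**Figure D3:**
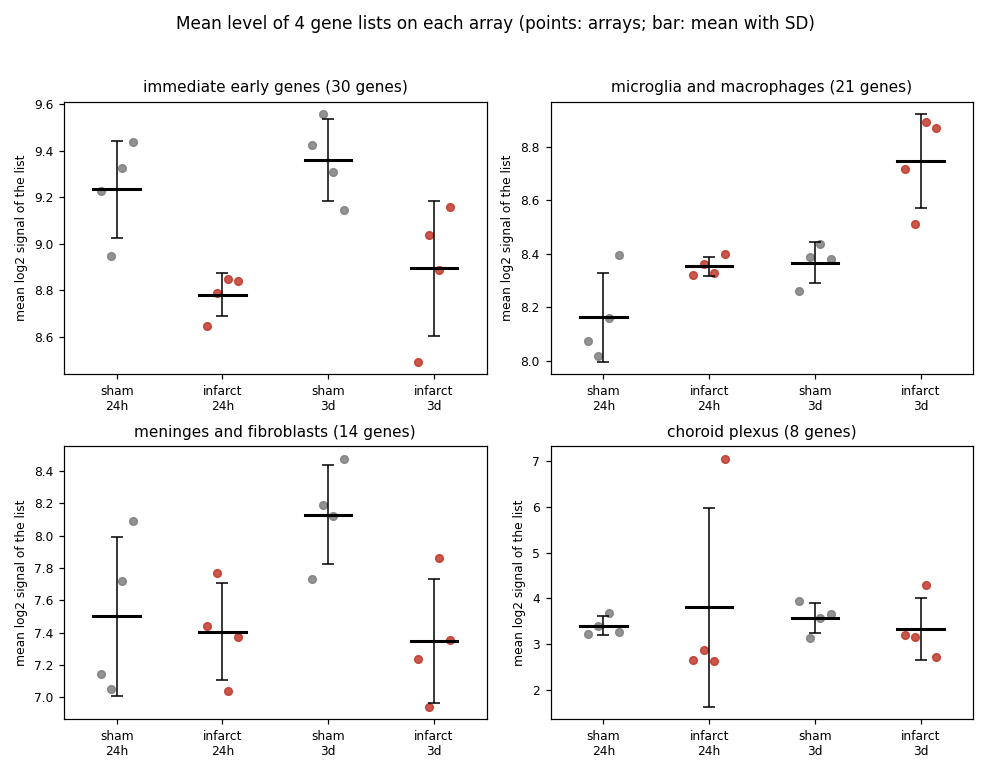
Mean log2 signal (y axis) over the genes of 4 lists on each contralateral array, by group (x axis); grey points are sham arrays, red points infarct arrays, bars the mean and whiskers the SD of 4 arrays. The array at 7.06 in the choroid plexus panel is infarct pool 4, and meningeal genes at 3 d read 6.94 to 7.86 after infarct and 7.73 to 8.48 after sham.

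Genes of glutamate and GABA transmission and neuronal markers had medians between -0.02 and 0.03 at either time. Of 37 genes of glutamate and GABA transmission 21 were higher at 24 h and 16 at 3 d, and of 12 neuronal markers 6 and 4. The shares of all probes that were higher were 50.9% and 51.1%. Medians at either time lay between -0.11 and 0.10 for genes of glucocorticoid response, heat shock and unfolded protein, the circadian clock, neuronal growth and injury, neuropeptides and interneurons, trophic factors, oligodendrocytes and striatum. Medians at 24 h and 3 d were 0.16 and -0.07 for hypoxia and glycolysis, 0.16 and 0.04 for cortical layers, and 0.24 and -0.10 for endothelium and mural cells. They were 0.02 and 0.46 for neutrophils and lymphocytes, -0.14 and 0.20 for erythroid cells, and 0.0049 and -0.13 for hippocampus and thalamus. At 24 h and 3 d 12 and 7 of 16 hypoxia and glycolysis genes were higher, and 11 and 5 of 15 endothelial and mural genes. So were 5 and 7 of 9 neutrophil and lymphocyte genes. With an unadjusted p under 0.05 these 3 lists had 0 and 0, 2 and 1, and 0 and 1 higher genes, against 1.31% and 1.23% of all probes.

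Of the stress genes, Hmox1, the inducible heme oxygenase, read 7.04, 7.17, 8.16 and 7.71 after infarct and 6.68, 6.78, 6.88 and 6.95 after sham at 3 d, with no overlap. Its differences were 0.18 ± 0.21 and 0.70 ± 0.21. The chaperone Hspa1b differed by 0.06 ± 0.14 and -0.51 ± 0.14, and the small heat shock protein Hspb1 by 0.08 ± 0.21 and -0.07 ± 0.21.

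**Figure D4:**
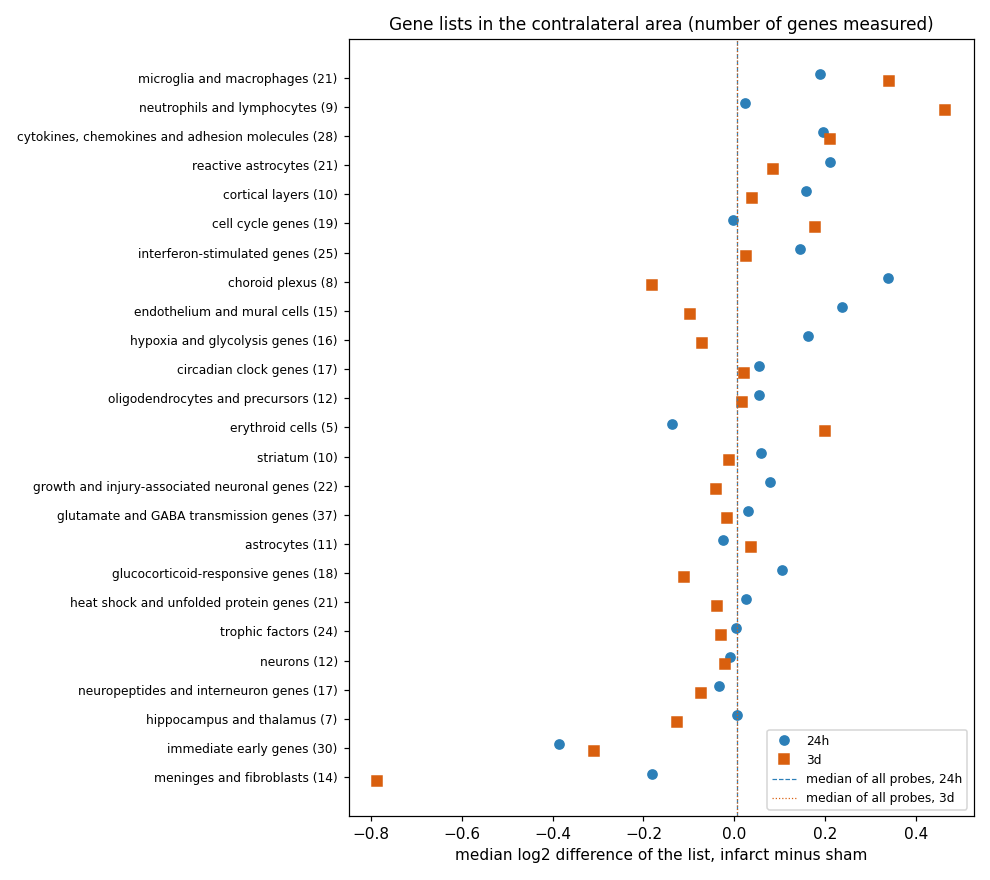
Median log2 difference, infarct minus sham (x axis), of 25 gene lists (y axis, with the number of genes measured) at 24 h (circles) and 3 d (squares); the vertical lines mark the median of all probes. Immediate early genes lie at -0.39 and -0.31, meninges and fibroblasts at -0.18 and -0.79, and microglia and macrophages at 0.19 and 0.34.

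Across all genes, those with the smallest p among the probes without overlap at 24 h were Egr3, Ceacam20, Egr1, Cpn1, Or4p18b and Gapdhs on the lower side and Lao1, Lrrc46, Kng2, Stpg1, Nlrp4a and Nr3c2 on the higher side. Several probes were dim: those of Lao1 and Cpn1 and the Nr3c2 probe named here were not well above background on any of the 16 arrays. At 24 h Nlrp4a was well above background on 1 infarct array and 0 sham arrays, and Or4p18b and Gapdhs each on 0 infarct arrays and 1 sham array. A second probe of Nr3c2, the mineralocorticoid receptor, was well above background on all 16 arrays and differed by 0.03. Ceacam20 was not well above background on the infarct arrays of 24 h, and sham was at least 1.71-fold higher. Kng2, a kininogen, was not well above background on the sham arrays, and infarct was at least 1.16-fold higher. Stpg1 read 4.65, 5.05, 5.03 and 4.74 after infarct and 3.96, 4.10, 4.06 and 4.27 after sham, a difference of 0.77 ± 0.19, and Lrrc46 differed by 1.49 ± 0.36, while a second Lrrc46 probe differed by 0.00546.

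At 3 d those genes were Fcrl2, Pbk, Dmkn, RGD1566252, Fcgr2b and Hal on the higher side and Taar9, Btg2, Ccn1, Ier2, Adcy10 and Zic1 on the lower side. Fcrl2, an Fc receptor-like gene, read 10.11, 9.11, 9.91 and 9.93 after infarct and 8.54, 7.43, 8.01 and 7.46 after sham, a difference of 1.90 ± 0.31 with an adjusted p of 0.245. Dmkn, which encodes dermokine, read 8.72, 8.05, 8.54 and 8.47 after infarct and 7.45, 7.81, 7.77 and 7.96 after sham, and its groups were apart at 24 h as well. Pbk, a mitotic kinase, read 2.95, 1.36, 2.13 and 3.18 after infarct and 0.63, 0.62, 0.64 and 0.98 after sham and was well above background on 2 infarct arrays and 0 sham arrays.

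On the lower side Ccn1, a matrix protein whose gene also responds quickly to growth factors, read 4.77, 5.57, 5.30 and 5.33 after infarct and 6.90, 7.40, 6.44 and 5.85 after sham at 3 d. Its differences were -0.10 ± 0.31 at 24 h and -1.40 ± 0.31 at 3 d. Zic1, a transcription factor, read 3.81, 4.10, 4.17 and 4.58 after infarct and 4.90, 4.82, 4.87 and 4.99 after sham, and Adcy10, the soluble adenylyl cyclase, differed by -0.80 ± 0.18. Taar9 was well above background on 0 infarct arrays and 1 sham array of 3 d.

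Over all probes the log2 differences at the 2 times correlated with r = -0.12, across probes, which are not independent. There were 65 probes with an unadjusted p under 0.05 at both times, of which 17 were lower at both, 23 higher at both and 25 in opposite directions. Egr2, Arc, Fos, Nr4a1, Junb and Ier2 were among the 17, and C1qb, Ccl3 and Dmkn among the 23. Among the genes with the smallest p-values for the difference between the times were Pttg1, Ect2 and Pbk on the higher side and Taar9 and Stc1 on the lower side. Stc1, which encodes the hormone stanniocalcin, read 6.29, 6.38, 6.67 and 6.55 after infarct and 5.89, 6.08, 6.20 and 6.20 after sham at 24 h and 5.81, 5.71, 5.45 and 5.76 after infarct and 5.98, 6.41, 6.13 and 5.86 after sham at 3 d, higher without overlap at the first time and lower without overlap at the second. The immediate early list had a median difference between the times of 0.13 and the microglial list of 0.20.

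**Figure D5:**
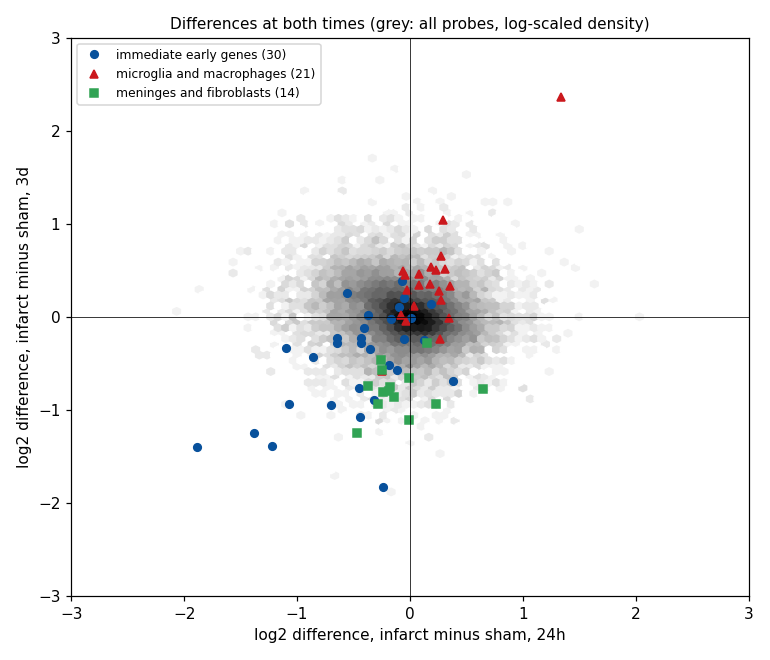
Log2 difference, infarct minus sham, at 24 h (x axis) and 3 d (y axis) for all 30539 probes (grey, log-scaled density) and for the genes of 3 lists. Immediate early genes (30 points) spread to the lower left, the 14 meningeal genes lie below 0 at 3 d, and microglial genes (21 points) lie mostly above 0 at 3 d, with Spp1 (1.34 and 2.36) at the upper right.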

How the data were processed

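Spot intensities were deposited as Agilent Feature Extraction 10.7.3.1 output of 1-colour rat arrays, background-subtracted by the authors' scanner software and not normalized between arrays. A table of log2 values for 20395 probes, also deposited, had per the study's methods been thresholded at 1, quantile normalized and filtered by the authors, and served as an alternative. The deposited spot flags are of another kind, 0 or 1.

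Intensities under 1 were set to 1, put on the log2 scale and quantile normalized over all 44 arrays, outlier spots left out (1289 on the 16 arrays) and spots of a probe averaged. Of 41012 probes, 30539 reached the 20th percentile with a positive and significant signal on 75% or more of some group's arrays and had a coefficient of variation over 2.5%. Symbols came from RefSeq accessions (16815 probes) or the deposited table (2502), and 21695 probes had none. The 16 arrays were fitted with 4 group means and no covariates in limma 3.58.1 (R 4.3.3, 12 residual degrees of freedom), with Benjamini-Hochberg adjustment over all probes tested, and the steps were checked on simulated data. With 4 arrays a group, their number limits the precision. Each p-value measures the spread between pools of rats. Not well above background is the scanner's flag, and "at least" folds set the dim side at the lowest signal well above background. Where no probe passed, up to 6 genes a direction were named by smallest unadjusted p among probes without overlap and with a log2 difference of at least 0.58 (3 for the difference between the times), beside members of each list with the smallest p or that define it, and 10 genes the study tabulates for the ischemic areas. Of the genes this rule names, 1 is not reported here. Genes outside this rule were chosen after their values were seen. The comparison and the 25 lists (410 of 449 symbols measured) were chosen with earlier results of these data known. Alternatives changed the normalization, background, filter, spread, control, slide, pool and arrays used.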

Additional observations from a re-analysis of the deposited data

Results flagged for a closer look

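Among groups of 4 arrays, 18 of 248 for the 62 genes examined and 3 of 100 for the list means had 1 array far from the other 3, where chance gives about 1 in 20. The values are log2 signals.

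Infarct pool 4 of 24 h was the highest of its group for Ttr (13.3), Sostdc1 (9.3), Gfap (8.93), Cdh29 (6.53) and the choroid plexus list mean (7.06). In the same group pool 3 was highest for RGD1566252 (2.4) and pool 1 lowest for the cortical layer list mean (7.57). Among the sham arrays of 24 h pool 5 was highest for Dusp6 (11.8) and pool 7 lowest for Cpn1 (0.626).

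In the infarct group of 3 d pool 9 was highest for Cpn1 (0.903) and pool 11 for Lao1 (0.947), Lyz2 (10.5) and the interferon list mean (6.94). Among the sham arrays of 3 d pool 13 was highest for Egr1 (12.3) and Fcgr2b (8.34) and pool 14 for P2ry12 (10.6). Pool 16 was highest for Hal (1.35), Lao1 (1.23), Pbk (0.985) and Pttg1 (7.32) and lowest for Nr4a1 (12.8). Some of these values were dim: Cpn1 and Lao1 were not well above background on any of the 16 arrays. Nor were Hal and Pbk on any sham array of 3 d, or RGD1566252 on any infarct array of 24 h.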

How the results depend on the processing

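The compared groups share no pool numbers, so the replicate block, pool as a random block over all 44 arrays (consensus correlation 0.220), links areas of the same rats only. It called 1 probe at 24 h, as did the fit of all 44 arrays without the block, a probe with no symbol. Slide as a fixed block called 1 at each time (Ifit1 at 24 h) and array weights 1 at 3 d, Taar9. Healthy ipsilateral cortex as control gave 1757 at 24 h, 0 at 3 d and 169 for both times, and ipsilateral sham 9, 0 and 4. Leaving out each array gave 0 to 4 at 24 h, 0 to 2 at 3 d, 0 to 2 for both times and 0 to 2 for the difference between the times. At 24 h 4 were called without infarct pool 1 (Nlrp4a among them), 4 without sham pool 7 (Cpn1 among them) and 1 without sham pool 6. At 3 d there was 1 without infarct pool 10 (Pbk), 2 without sham pool 13 (Taar9 among them) and 1 without sham pool 14. The average of both times and the difference between them had calls without sham pools 6, 7 and 14. All other settings run called 0. The fixed slide block, the 4 arrays left out together and array weights were chosen after seeing the data.

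The following log2 differences turned sign. With ipsilateral sham as control they were Spp1 -1.23, Ccl2 -1.46, Hspa1b -0.11, Hspb1 -1.06, Gfap -0.93, Hmox1 -0.25, Timp1 -1.17, Serpina3n -3.14, Il1b -0.73, Bdnf -0.12, Fcgr2b -0.00637, Lgals3 -0.45, P2ry12 0.0926 and Tyrobp -0.11 at 24 h and Pbk -0.20, Ccl2 -0.58, Timp1 -0.26, Serpina3n -0.92 and Bdnf 0.14 at 3 d. With healthy ipsilateral cortex they were Cpn1 0.0172, Gfap -0.17, Bdnf -0.41 and P2ry12 0.31 at 24 h. With slide as a fixed block they were Spp1 -0.081, Hspb1 -0.25 and Lgals3 -0.0802 at 24 h and Bdnf 0.27 at 3 d, and without the 4 infarct arrays of 1 slide Hspb1 -0.097 and Serpina3n -0.14 at 24 h. With slide as a random block they were Bdnf -0.016 at 24 h and Bdnf 0.00564 at 3 d. Scaling to the 75th percentile gave Bdnf -0.00508 at 24 h and normexp P2ry12 0.000571 at 24 h. Leaving out single arrays also turned Hspb1 at 24 h (-0.15 to 0.19), Hspb1 at 3 d (-0.18 to 0.0198), Serpina3n at 24 h (-0.0631 to 1.09), Bdnf at 24 h (-0.15 to 0.29), Bdnf at 3 d (-0.11 to 0.0968) and P2ry12 at 24 h (-0.14 to 0.0895). Of the gene values recomputed, 2414 kept their direction and side of the threshold, 20 passed it and 45 turned sign. The cause was not tested. Dim probes and 4 arrays a group limit what could be called.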
